A study of Mus musculus with 12 samples.

Results

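Counts assigned to Olfr648, which encodes an olfactory receptor, divided the 11 distinct mouse serum RNA libraries into 6 in which it the row held more than 1000000 counts and 5 in which it held far fewer. The libraries were chosen by that count alone, so the size of the gap is a description and carries no test. The high libraries were normal replicates 2 and 3 and colorectal cancer replicates 1, 2, 4 and 6. The low libraries were normal replicates 1, 4, 5 and 6 and colorectal cancer replicate 3. High libraries thus made up 2 of 6 in normal serum and 4 of 5 in colorectal cancer, and class and disease were partly tied.

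Total RNA had been sequenced from the serum of normal mice and of mice with colorectal cancer, 6 samples in each group by the labels, which call them biological replicates. The files of colorectal cancer replicates 5 and 6 were identical in every row, and they were counted as 1 library, replicate 6. Strain, age, sex and the way the tumours arose are not stated in these labels. No label names a run, a date or another batch, and the difference between the classes could not be set against one.

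Olfactory receptors are G protein-coupled receptors of the sensory neurons of the nose, each of which expresses a single receptor gene. Their genes lie in large clusters, and a cluster on mouse chromosome 7 surrounds the beta-globin genes. Beta-globin is a chain of haemoglobin and, with alpha-globin, makes up most of the messenger RNA of young red cells, so that whole blood RNA is usually rich in both. Haemoglobin transcripts are often depleted before sequencing.

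The sequences of the row that set the classes and of the adult beta-globin genes are shown because all these genes lie on the same stretch of chromosome 7. The Olfr648 row held most counts of each high library, while the adult beta-globin rows were at 0 in every library, high and low. Olfr648 (ENSMUSG00000042909.4) is a protein-coding gene at chr7:104177598-104183392 of mm10, minus strand, with 2929 exonic bases in GENCODE release M21. Hbb-bs (chr7:103826534-103828096) and Hbb-bt (chr7:103812524-103813996), the adult beta-globin genes, lie on the same strand, Hbb-bs at 349.5 kb from Olfr648. The first 90 coding bases of each are given 5′ to 3′ from the GENCODE transcripts, with the start codon in capitals.
Olfr648: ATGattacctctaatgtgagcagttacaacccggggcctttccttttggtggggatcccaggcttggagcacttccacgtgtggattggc
Hbb-bs: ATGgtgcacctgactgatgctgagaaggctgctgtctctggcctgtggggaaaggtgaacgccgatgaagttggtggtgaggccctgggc
Hbb-bt: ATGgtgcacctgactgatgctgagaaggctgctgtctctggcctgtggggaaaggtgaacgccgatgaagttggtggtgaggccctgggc

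Over these 90 bases Hbb-bs and Hbb-bt differed at 0 positions, and Olfr648 differed from Hbb-bs at 59. Of the 2905 distinct 25-base words in the annotated Olfr648 transcripts, 0 occurred in the transcripts of Hbb-bs or Hbb-bt on either strand. The same search found 42 shared words with the neighbouring receptor gene Olfr649 and 0 with Trim6, the nearest gene on the higher-coordinate side that was abundant in all 11 libraries. The annotated transcripts of Olfr648 and beta-globin therefore shared no run of that length. Whether reads of other genes were counted in the Olfr648 row was not tested, since the reads were not used here.

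Among the high libraries the Olfr648 row held 17324370 counts in normal replicate 2 and 15233872 in normal replicate 3. In colorectal cancer it held 11225306 in replicate 1, 7969078 in replicate 2, 12352755 in replicate 4 and 8474570 in replicate 6. The low libraries had 4820, 3247, 4870 and 5150 counts in normal replicates 1, 4, 5 and 6 and 5132 in colorectal cancer replicate 3. No library lay between 5150 and 7969078 counts, the values just outside and just inside the threshold, and the lowest high library exceeded the highest low library 1547-fold.

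Olfr648 took 83.4% and 80.5% of all counts in normal replicates 2 and 3. In colorectal cancer replicates 1, 2, 4 and 6 it took 70.8%, 53.1%, 69.6% and 57.9%. Both high normal libraries were above all 4 high colorectal cancer libraries. In the low libraries the share ran from 0.112% to 0.159%. The low libraries were alike in this respect whichever group they came from, and the colorectal cancer library among them, at 0.137%, lay between the normal ones.

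**Figure D1:**
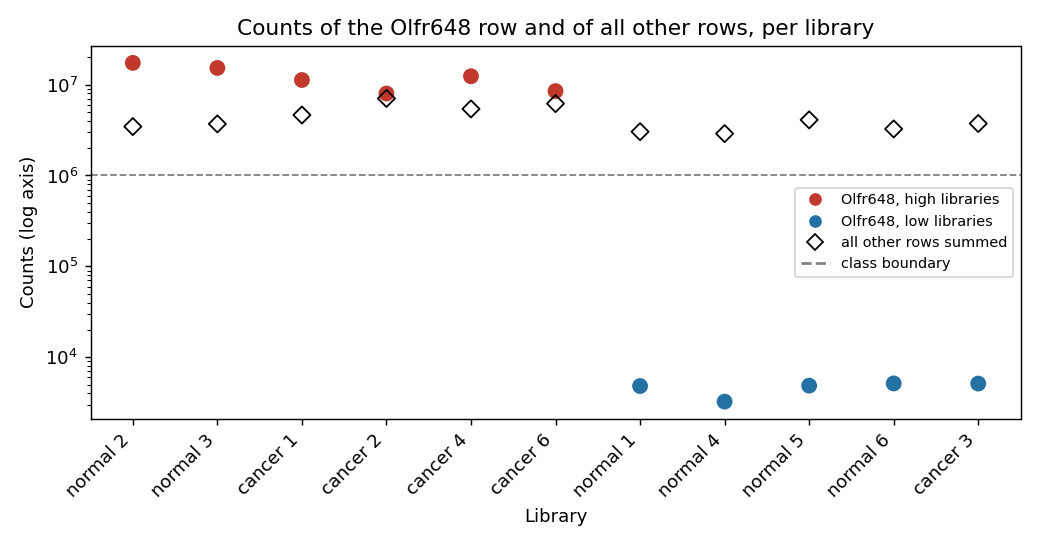
Counts of the Olfr648 row and counts of all other rows together in each of the 11 libraries, on a logarithmic axis with the class boundary dashed. Olfr648 lies between 7969078 and 17324370 counts in the 6 high libraries and between 3247 and 5150 in the 5 low ones, while the sum of the other rows stays within 2885958 to 7033966.

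With Olfr648 left out, the totals ran from 3450519 to 7033966 counts in the high libraries (median 5011515) and from 2885958 to 4089488 in the low ones (median 3249857). A row at 0 in the smallest library allows up to 1.04 CPM (counts for every 1000000 in the library), which covers counting error only. Each file lists 53546 gene symbols, and a count refers to the row of that name. That limit matters here, since 32 of 79 cytosolic ribosomal protein rows, which nearly all cells use, were at 0 in all 11 libraries. Blood cell markers were also incomplete: the erythroid gene Alas2, the platelet genes Pf4 and Ppbp and the neutrophil genes S100a8 and S100a9 were at 0 throughout, while the red cell gene Tmod1 and the platelet-rich gene Gng11 had counts.

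No other row behaved like Olfr648 in size. It was the 1 row of the files to reach 1000000 counts in any library, and the highest count of any other row was 672801, for the mitochondrial ribosomal RNA mt-Rnr2 in colorectal cancer replicate 2. Of 1410 rows named as olfactory receptors, 1060 were at 0 in all 11 libraries and 350 had counts. All 7 beta-globin rows (Hbb-bs, Hbb-bt, Hbb-bh0, Hbb-bh1, Hbb-bh2, Hbb-bh3 and Hbb-y) had 0 counts in all 11 libraries, high and low alike.

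The rows around Olfr648 were unevenly filled. Within 1 Mb of it the annotation placed 152 other rows, of which 118 were at 0 in all libraries. On the lower-coordinate side, where the beta-globin genes lie, 72 of 80 rows were at 0, and no row there reached 1000 counts per exonic kb in any library. On the other side 25 rows reached that level in at least 1 library and 1, Trim6, in all 11. A few of them lie close to Olfr648 and most in a block of receptor genes farther off, and they are called the run here although rows at 0 lie between. Trim6 (chr7:104218793-104235152) encodes a ubiquitin ligase of the tripartite motif family that acts in antiviral signalling.

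The run was present in both classes. It held 11, 4, 12 and 12 rows in the low normal libraries (replicates 1, 4, 5 and 6) and 18 in the low colorectal cancer library. In the high libraries it held 18 and 12 rows (normal replicates 2 and 3) and 13, 19, 15 and 21 rows (colorectal cancer replicates 1, 2, 4 and 6). The classes overlapped in the number of rows, and normal replicate 4 had the fewest. Its last row was Olfr654, 405.5 kb from the Olfr648 start site to its midpoint, in normal replicate 4, and Olfr663, at 520.7 kb, in 6 libraries of both classes. In the remaining 4 libraries it ended further on, at Usp17lb (658 kb, normal replicate 2 and colorectal cancer replicate 3), Usp17la (676.4 kb, colorectal cancer replicate 6) or Olfr666 (710.5 kb, colorectal cancer replicate 2).

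By definition the run holds only rows at 1000 or more counts per exonic kb, so lower rows were left out of its range. Levels ran from 3889 to 5115 counts per exonic kb in normal replicate 1 and from 1405 to 3785 in normal replicate 2. In colorectal cancer replicate 6 the range was wider, at 2073 to 10394. The median was 4977, 3487, 5543 and 5423 counts per exonic kb in the low normal libraries and 5412 in the low colorectal cancer library. It was 3535 and 17271 in the high normal libraries and 4237, 9552, 4699 and 9540 in the high colorectal cancer libraries. Normal replicate 3 stood apart from the other high libraries: the run took 14.2% of its counts outside Olfr648, while in the other libraries that share ran from 1.73% in normal replicate 4 to 6.56% in colorectal cancer replicate 6.

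**Figure D2:**
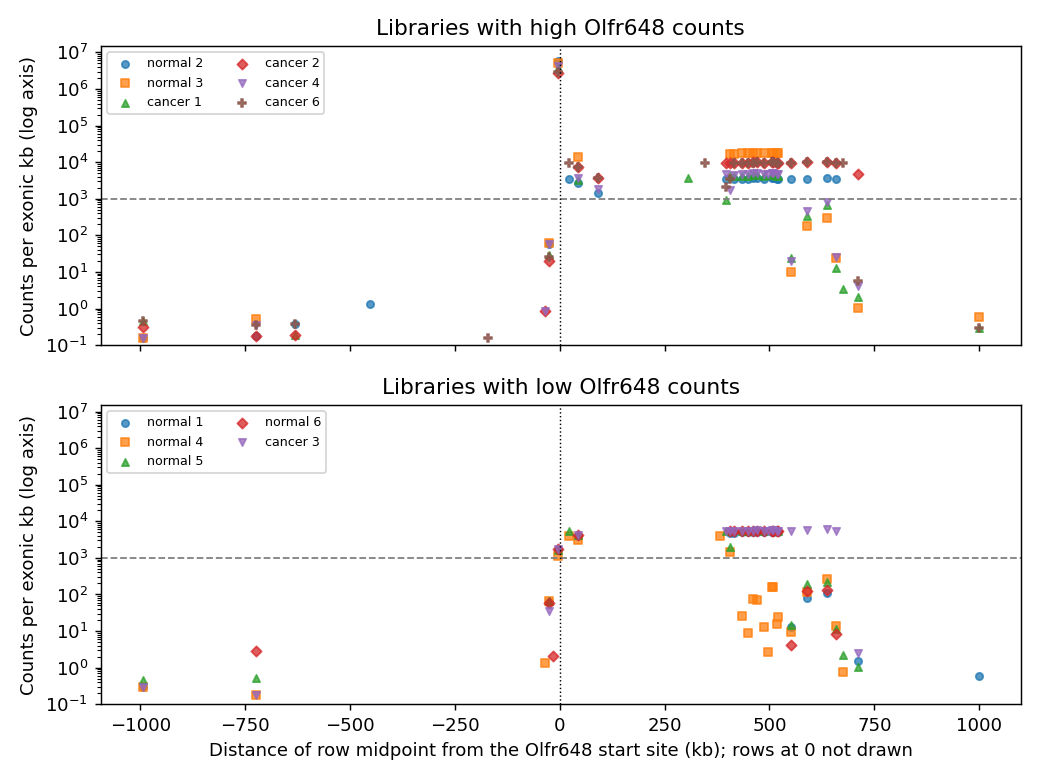
Counts per exonic kb of rows (logarithmic axis) by distance in kb from the Olfr648 start site, for the high libraries above and the low ones below; each symbol is a library, and rows at 0 are not drawn. Apart from Olfr648 itself, whose midpoint is at -2.9 kb, rows at lower coordinates stay under 1000 per kb in every library. Trim6, 43.6 kb away, and a block of rows up to Olfr663, 520.7 kb away, are filled in both classes. In low normal replicate 4 the block is not filled beyond its first rows.

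Set against Trim6, the Olfr648 row fell into 2 separate ranges. Per exonic base Olfr648 was 0.359 to 0.423 times Trim6 in the 5 low libraries (median 0.415), close to a fixed ratio. In the high libraries the ratio ran from 366 to 2145 (median 774). Olfr656 and Olfr659, abundant receptor rows of the run, held nearly the same ratio to Trim6 in all libraries but 1. Olfr656 lay at 1.28 to 1.29 times Trim6 per exonic base in the high libraries, and Olfr659 likewise at 1.28 to 1.29. In the low libraries the median ratio was 1.28 for both, with normal replicate 4 as the exception (0.00847 for Olfr656 and 0.00408 for Olfr659). Not every receptor row did so: Olfr654 was at 0 in high normal replicate 2, and Olfr655 was at 0 in low normal replicates 4 and 5.

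Trim6 itself had 7257, 5922, 5212 and 8052 CPM in low normal replicates 1, 4, 5 and 6 and 5104 in low colorectal cancer replicate 3. CPM here are TMM-scaled, with Olfr648 left out of the totals. In the high libraries Trim6 ran from 2722 to 20560 CPM (median 4271), and the classes overlapped. The highest value was that of normal replicate 3, and the other 5 high libraries lay between 2722 and 5225. The log2 difference between high and low libraries, with disease group held in the fit, was 0.38 (SE 0.42), a description with no test, as for all rows of this stretch and the globin rows.

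Trim5, another tripartite motif gene of the stretch (chr7:104263386-104288094), was at 0 in all 5 low libraries. Among the high libraries it had 1606 CPM in normal replicate 2 and 1676, 1045 and 2007 in colorectal cancer replicates 2, 4 and 6, and it was at 0 in normal replicate 3 and colorectal cancer replicate 1. It thus had counts in 4 of 6 high libraries and in 0 of 5 low ones. DESeq2 called Trim5 higher in the high libraries (adjusted p = 4.83e-12). As a row of this stretch it is given as a description, and no association with the class is drawn from it. The pseudogene row Olfr650-ps1, which lies between Olfr648 and Trim6, had counts in 2 high libraries (2535 CPM in normal replicate 2 and 3167 in colorectal cancer replicate 6) and 2 low ones (3592 and 3160 in normal replicates 4 and 5). These rows were chosen after their values were seen. Olfr653 was at 0 in 3 low libraries and in high normal replicate 3, and at 5226 to 6515 CPM in 4 libraries of both classes.

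Outside Olfr648, the high and low libraries were compared across 9858 rows to ask whether the rest of the RNA differed with the class. No row was higher or lower past an adjusted p of 0.05 in the two-sided quasi-likelihood test of edgeR, adjusted by Benjamini-Hochberg with group as covariate, that is 0% of the rows tested. The smallest adjusted p was 0.566. At an unadjusted p under 0.05 there were 267 higher and 227 lower rows, 5.01% of all tested. DESeq2 with the same terms called 9 higher and 7 lower among the 9584 rows to which it gave an adjusted p. The higher rows included Trim5, of the stretch near Olfr648 that is given as description only. Since the classes were made from a measured value, these p-values describe how rows divide with Olfr648 and test no treatment.

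The unadjusted p-values of the class were spread evenly, with 9.46% to 10.5% of rows in each of 10 equal bins between 0 and 1. In the same fit the group term, colorectal cancer against normal, put 15.3% of rows in the lowest bin and called 15 rows higher and 65 lower, 0.812% of those tested. With libraries scaled by totals alone, 318 rows were higher and 107 lower for the class at an unadjusted p under 0.05. Over all rows the median log2 difference between high and low libraries was 0.005, and 86% of rows lay within 1 log2 unit of 0. The median standard error was 0.41 on the log2 scale (quartiles 0.22 and 0.89). On data simulated from these libraries the same procedure recovered 18% of rows changed 2-fold and 47% of those changed 4-fold, so differences of these sizes could often be missed with these libraries.

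**Figure D3:**
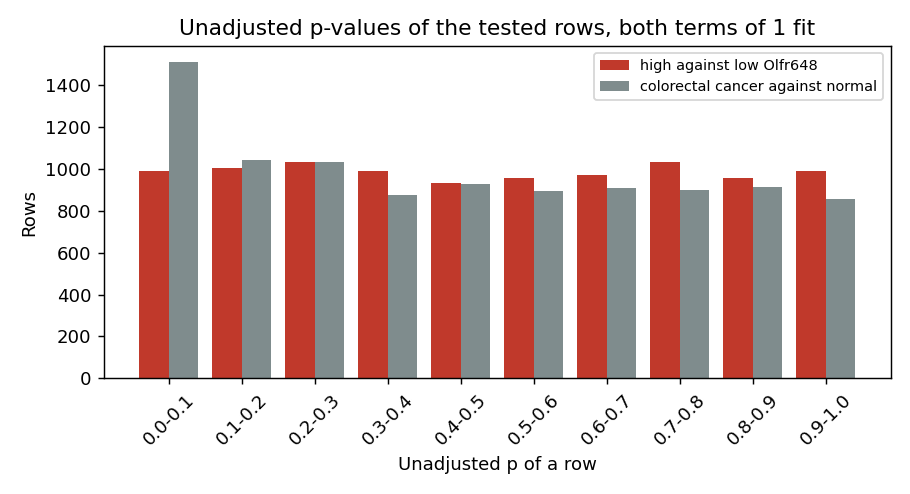
Number of the 9858 tested rows in each of 10 equal bins of the unadjusted p-value, for the class (high against low Olfr648) and for the group (colorectal cancer against normal) in the same fit. The class bars lie between 933 and 1035 rows, while the group has 1511 rows in the lowest bin.

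In 46 rows the high libraries were all above the low ones, and in 32 rows all below, which is 0.467% and 0.325% of the rows tested. None of the named rows among them passed in edgeR, while DESeq2 called Ubtd1, Ppp1r8, Slamf1 and Chst8. Slamf1 encodes a receptor of lymphocytes and myeloid cells. Its row was at 6.10, 14.9, 15.3 and 11.3 CPM in low normal replicates 1, 4, 5 and 6 and at 18.1 in low colorectal cancer replicate 3. In the high libraries it ran from 22.0 to 48.7 CPM (median 41.0). The classes did not overlap, with a log2 difference of 1.33 (SE 0.27; edgeR adjusted p = 0.971).

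Chst8, a sulfotransferase that modifies hormone sugar chains, was at 29.0, 23.1, 38.5 and 32.7 CPM in low normal replicates 1, 4, 5 and 6 and at 26.5 in low colorectal cancer replicate 3. Its high libraries ran from 43.2 to 105.2 CPM (median 81.1), again without overlap, and the log2 difference was 1.35 (SE 0.29). Slamf1 and Chst8 are 2 of the 16 rows that DESeq2 called (adjusted p = 0.00689 and 0.00959). Pde6h, a phosphodiesterase subunit of cone photoreceptors, had a log2 difference of 1.03 (SE 0.23), but its high libraries, at 20.9 to 54.8 CPM, overlapped the low ones at 16.1 to 23.3.

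On the lower side, Cox14, an assembly factor of cytochrome c oxidase, had 21.7, 21.6, 25.5 and 21.8 CPM in low normal replicates 1, 4, 5 and 6 and 22.3 in low colorectal cancer replicate 3. In the high libraries it had 11.8 to 17.0 CPM (median 14.1). The classes did not overlap, and the log2 difference was -0.74 (SE 0.17). Ndufb11b, a row named for a respiratory complex I subunit, was also parted, at 30.0 to 42.3 CPM in the high and 46.3 to 64.8 in the low libraries (log2 difference -0.64, SE 0.16). Hint2, a mitochondrial hydrolase, and Esyt1, a lipid transfer protein at membrane contacts, had log2 differences of -0.76 (SE 0.18) and -0.46 (SE 0.10), and their classes overlapped. The edgeR adjusted p of all 4 was 0.971.

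**Figure D4:**
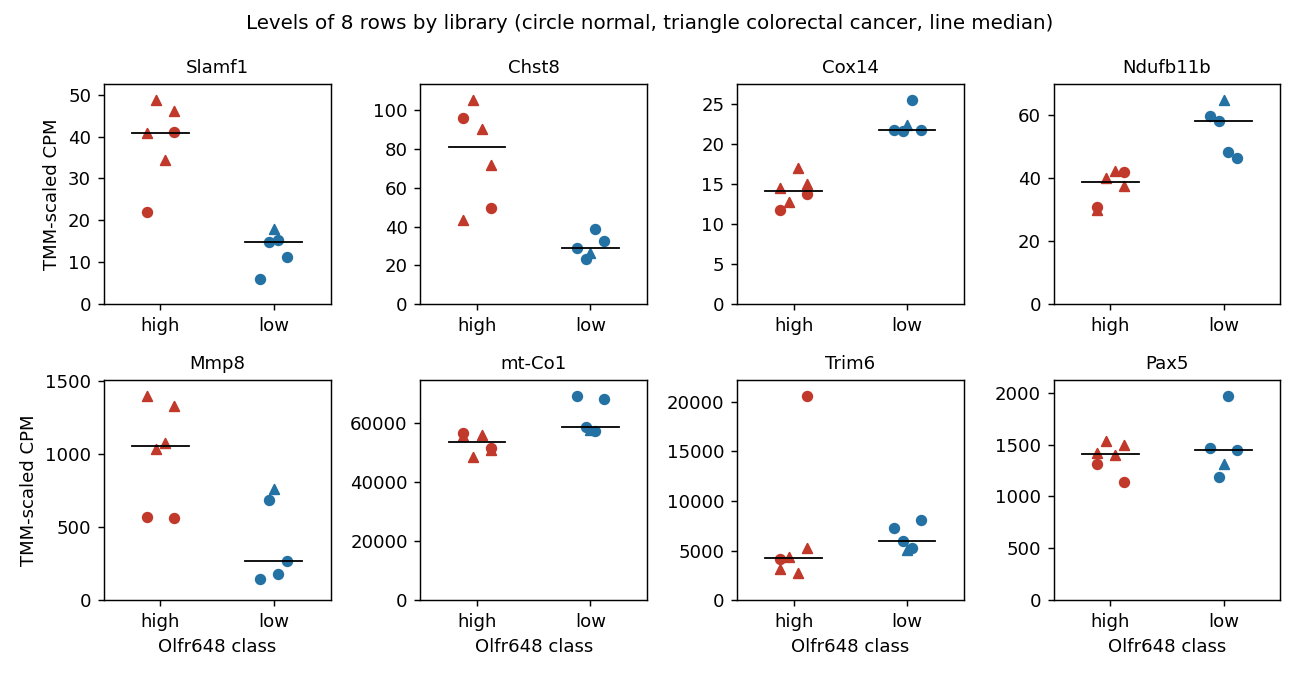
TMM-scaled CPM of 8 named rows in each library, high and low side by side, with Olfr648 left out of the totals; circles are normal, triangles colorectal cancer libraries, lines medians. The high libraries lie above the low ones for Slamf1 (22.0 to 48.7 against 6.10 to 18.1) and below them for Cox14 (11.8 to 17.0 against 21.6 to 25.5).

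No other row had a gap between the classes like that of Olfr648. The search asked for a lowest value in one class at least 10 times the highest in the other, and 0 rows passed. That highest value was taken as no less than 1.04 CPM. This floor is 3 counts in the smallest library by its total alone, while the CPM compared were TMM-scaled. With this floor the widest gap was 2.03-fold for BC049352 (higher in the high libraries) and 1.66-fold for Gm37289 (lower). Sparse rows such as Ubtd1 and Ppp1r8, given below, were at 0 in every low library and above 0 in every high one, but at too few counts for a gap above the floor to be measured. BC049352 (chr9:45182007-45250020), a row chosen after its values were seen, was at 0, 0, 0.988 and 0 CPM in low normal replicates 1, 4, 5 and 6 and 1.98 in low colorectal cancer replicate 3. It was at 4.03 CPM in high normal replicate 2 and between 21.1 and 23.7 in the other 5 high libraries. Its adjusted p of 0.566 was the smallest of all rows in edgeR (log2 difference 4.37, SE 0.71), and DESeq2 gave 2.01e-05.

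Rows that were near 0 in some libraries and abundant in others were found, but not in the pattern of Olfr648. In 53 rows at least 1 library was under 1 CPM and another over 100. They showed 43 different patterns over the libraries, 13 of them lay within 1 Mb of Olfr648, and 0 matched its classes in 10 or more of the 11 libraries. The 5 rows whose log2 CPM rose most closely with Olfr648, of 10412 rows and over 11 libraries, were Adgrd2-ps (r = 0.972), Ubtd1 (0.929), Ppp1r8 (0.920), Lias (0.906) and 1700051K13Rik (0.902). All 5 were sparse. In the opposite direction the strongest correlations were those of Cox14 (r = -0.934) and Gm37289 (-0.930), and Cox14, with 838 counts over all libraries, had more counts than the sparse rows. Ubtd1, a ubiquitin-like domain gene, had 115 counts over all libraries, at 0 in each low library and 1.37 to 7.47 CPM in the high ones. Ppp1r8, a regulatory subunit of protein phosphatase 1, had 63 counts in all and was also at 0 in each low library. The high libraries were the deeper ones on average, and these correlations are a description that shares that depth. No fold is given for rows at 0 throughout a class.

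**Figure D5:**
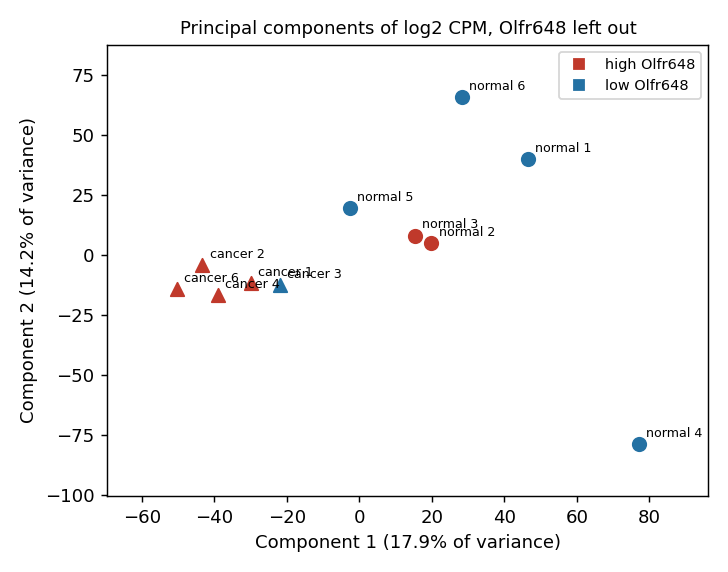
The 11 libraries on the first 2 principal components of log2 CPM, Olfr648 left out, which hold 17.9% and 14.2% of the variance; colour marks the class and shape the group. Colorectal cancer libraries lie at -50.4 to -21.9 on the first component and normal libraries at -2.66 to 77.2, with the low colorectal cancer replicate 3 beside the high colorectal cancer libraries and high normal replicates 2 and 3 among the normal ones.

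On the first component the disease groups did not overlap, while the classes did. On the second the normal libraries, at -78.7 to 65.9, enclosed all colorectal cancer libraries, at -16.8 to -4.23. Colorectal cancer replicate 3, the low library of that group, lay at -21.9 on the first component, nearest to colorectal cancer replicate 1 at -29.9. High normal replicates 2 and 3, at 19.8 and 15.3, lay between low normal replicates 5 (-2.66) and 6 (28.4). The classes overlapped on the first component, at -50.4 to 19.8 in the high and -21.9 to 77.2 in the low libraries. An interaction of class and group was also fitted, over 11367 rows. It rests on colorectal cancer replicate 3 as the lone low library of its group, and its calls are not read here.

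Gene lists for blood cells, other tissues and RNA classes were then read for the same comparison. Over 20 lists with 439 distinct members, 398 were in the files, 144 were at 0 in every library, and 149 could be tested. No member passed in edgeR, DESeq2 called 1 (mt-Nd6), and 22 of the 149 had an unadjusted p under 0.05 in edgeR, 7 of them mitochondrially encoded proteins and 4 mitochondrial rRNAs or tRNAs; over all rows tested the share was 5.01%. Of the 29 replication histone genes 0 were found under those symbols, and none of the 7 beta-globin rows could be tested.

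Red cell rows did not part the classes. Of 11 tested erythroid genes 4 were above and 7 below 0, with a median log2 difference of -0.22 against 0.005 over all rows tested. That median was -0.37 without normal replicate 2, -0.15 without normal replicate 3, -0.12 without normal replicate 4 and -0.13 without colorectal cancer replicate 2. Within the normal libraries alone it was -0.06 over 9 rows. Within colorectal cancer alone, where replicate 3 is the lone low library, it was -0.39 over 11 rows. Tspan33, a red cell tetraspanin, ran from 171 to 856 CPM in the high libraries (median 380) and had 943, 1083, 681, 1189 and 393 CPM in the low ones, and its log2 difference was -0.32 (SE 0.24). The lowest 4 high libraries were those of colorectal cancer. Tmod1, which caps actin filaments of the red cell skeleton, had a log2 difference of -0.44 (SE 0.31). Of 5 tested alpha-globin rows 2 were above and 3 below 0. Hba-x, the embryonic alpha-like globin, was at 11.8 to 23.5 CPM in the high and 18.0 to 22.8 in the low libraries (log2 difference -0.41, SE 0.17).

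The neutrophil list, of which 12 of 22 members were at 0, had a median log2 difference of 0.75 over 5 tested rows, 3 above and 2 below 0. Without colorectal cancer replicate 3 that median was 0.47, and within the normal libraries alone it was 0.24 over 4 rows. Mmp8, a neutrophil collagenase, had 567.9 and 563.6 CPM in high normal replicates 2 and 3 and 147, 683, 178 and 267 in the low normal libraries. In colorectal cancer it had 1395, 1036, 1075 and 1325 CPM in the high libraries and 761 in the low one. Within normal serum the classes overlapped, and its log2 difference was 0.77 (SE 0.40; unadjusted p = 0.0861 by edgeR). The list's summed level was 634 to 1534 CPM in the high and 205 to 859 in the low libraries.

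No platelet, lymphocyte or tissue row of the lists passed in edgeR. Ncr1, an activating receptor of NK cells, had a log2 difference of -0.52 (SE 0.24; edgeR unadjusted p = 0.0474), and Apoa2, a liver apolipoprotein, 0.61 (SE 0.56). Gng11, a G protein subunit rich in platelets, had a log2 difference of -0.01 (SE 0.22), and that of Tln1, a cytoskeletal linker of integrins, was 0.09 (SE 0.12). Pax5, a B cell transcription factor, had -0.14 (SE 0.15), Lyn, a Src family kinase, 0.11 (SE 0.12), and Cd3e, a CD3 signalling chain of T cells, -0.27 (SE 0.16). Lgr5, an intestinal stem cell receptor, stood at 222 to 250.0 CPM in the high and 212 to 287 in the low libraries. The Y-linked helicase Ddx3y lay at 489 to 670 CPM in the high and 487 to 653 in the low libraries, and the classes overlapped.

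Mitochondrially encoded protein rows were the 1 list of 20 whose summed level did not overlap between the classes. They summed to 139762, 124635, 125125 and 145878 CPM in low normal replicates 1, 4, 5 and 6 and to 127649 in low colorectal cancer replicate 3. In the high libraries the sum ran from 111293 to 120924 CPM. All 13 rows had a log2 difference below 0, with a median of -0.19 against 0.005 over all rows tested. None passed in edgeR. DESeq2 called mt-Nd6, a complex I subunit (log2 difference -0.30, adjusted p = 0.0245). The number below 0 was 12 of 13 when libraries were scaled by totals alone. As a percent of all counts outside Olfr648, without TMM factors, the classes overlapped, at 9.69% to 14.6% in the high and 11.01% to 13.8% in the low libraries.

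Of the mitochondrial rows, mt-Co1, the catalytic subunit of cytochrome c oxidase, had 69070, 58590, 57090 and 68100 CPM in low normal replicates 1, 4, 5 and 6 and 57560 in low colorectal cancer replicate 3. Its high libraries ran from 48510 to 56520 CPM. In these TMM-scaled CPM the classes did not overlap, by a narrow margin, and the log2 difference was -0.19 (SE 0.09; edgeR adjusted p = 0.971). Without TMM factors they overlapped. As a percent of counts outside Olfr648, mt-Co1 took 4.47% to 6.79% in the high and 5.18% to 6.24% in the low libraries. The mt-Co1 row was 1 of 7 of the 13 rows with an unadjusted p under 0.05 by edgeR. In scaled CPM mt-Co2, mt-Co3 and mt-Cytb were parted in the same way, 4 of 13 with mt-Co1, where 0.325% of all rows were parted lower. Of 17 tested mitochondrial rRNA and tRNA rows 14 were below 0 and 3 above, with a median log2 difference of -0.29, and their summed level overlapped between the classes. The ribosomal RNA mt-Rnr2 had a log2 difference of -0.07 (SE 0.19), with overlapping classes.

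No whole-library measure differed between the classes past an adjusted p of 0.05. With classes shuffled within the disease groups, 75 splits are possible and the smallest p they can give is 0.0133. After adjustment over 7 measures a single measure at that smallest p could not reach 0.05, so the adjusted values say little about whether the classes differ. The number of rows above 0 was 11493 to 15178 in the high and 10408 to 12425 in the low libraries (two-sided exact permutation p = 0.0933, adjusted p = 0.249 over 7 measures). After thinning every library to 2885958 counts the exact p was 0.107. Total counts outside Olfr648 gave 0.107 by the same exact test, and the shares of counts in the 10 highest rows, in mitochondrial rows, in structural noncoding RNA rows and in erythroid rows gave 0.707, 0.827, 0.907 and 0.267. Without normal replicate 5 the adjusted exact p of the total, the rows above 0 and the thinned rows was 0.0467 each, so that library decided on which side of 0.05 those 3 results fell.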

How the data were processed

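Total RNA from mouse serum was sequenced after a stranded total RNA library preparation, per the labels' protocols. The deposited files hold whole-number counts per gene symbol, taken as read counts without normalization from their values. Trim Galore, HISAT2, StringTie and mm10 are named in the submitters' processing notes without version, role or order. How and with which annotation reads were counted, and whether by strand, is not given in the sources, so overlapping and antisense genes and near-identical copies cannot be told apart. Positions are from GENCODE release M21, an mm10 annotation, in which 49972 of 53546 symbols had a single position; 0 rows name no gene.

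Libraries were classed by the raw Olfr648 count (above 1000000 is high), and that row was left out of totals, TMM factors and tests. Counts were filtered with filterByExpr and fitted in edgeR 4.0.16 (R 4.3.3; glmQLFit with robust estimation, glmQLFTest) with class and group as terms and Benjamini-Hochberg adjustment over all rows tested at 0.05. DESeq2 1.42.0 was an alternative. Library measures were compared with exact permutation tests over all splits within groups, computed in Python 3.11.15 with numpy 2.4.6. Tables and figures were made with pandas 2.3.3 and Matplotlib 3.10.9. Depth ran from 2889205 to 20774889 counts per library. Replicates are called biological by the labels, and the p-values are based on the spread between these samples. The classes were made from a measured value, so those p-values test no treatment.

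Simulated data with the means and sizes of these libraries were used to test the procedure (9858 rows, 200 changed): it made 70 calls, of which 7.14% were unchanged rows. Named rows are the 8 largest differences each way past the threshold with parted classes and at least median level (there were none), the 4 smallest p-values each way, rows that switch with the class, the 5 most like Olfr648, the 10 highest within 1 Mb, up to 2 members of each list per direction or the 2 most abundant, and all beta-globin rows. The first 2 parts leave out names of clones, predicted genes and pseudogenes. The libraries and lists were chosen with earlier results of these data known. Alternatives were other scalings, DESeq2, other filters, mitochondrial or neighbouring rows left out, no group term, a replicate block, each group alone, the repeated file kept and each library left out.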

Additional observations from a re-analysis of the deposited data

Results flagged for a closer look

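In 124 sets of 4 to 10 values, a library's gap to its nearest neighbour was compared with Dixon's critical value, and 16 exceeded it. For independent sets of normally distributed values, chance alone gives about 1 in 20. Many of the flagged sets are neighbouring rows in the same library, so the 16 cannot be set against that rate.

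Of these, 10 belong to high normal replicate 3, and 9 of the 10 are rows within 1 Mb of Olfr648, where it was far above the other 5 high libraries. Its CPM were 26030 in Olfr659, 22000 in Olfr656, 20560 in Trim6, 20530 in Olfr661 and 16460 in Olfr654. They were 15730 in Olfr658, 12890 in Olfr657, 10810 in Olfr655 and 6153 in Gm6593. These rows lie on the same stretch of chromosome 7, with other rows between Trim6 and Olfr654. The same library was lowest of the high ones in structural noncoding RNA rows, at 0.0597% of counts outside Olfr648.

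Among the low libraries, Cox14 was highest in normal replicate 5 at 25.5 CPM, and mt-Cytb was highest in normal replicate 6 at 14630 CPM. Muc2, a mucin gene, was lowest in normal replicate 4 at 16.5 CPM. Lias, which makes lipoic acid, was at 2.33 CPM in normal replicate 6, and 1700051K13Rik was at 0.495 CPM in colorectal cancer replicate 3, both levels of a few counts. Among the high libraries Gng11 was lowest in colorectal cancer replicate 4, at 3112 CPM.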

How the results depend on the processing

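No row passed in either direction with DESeq2's size factors within edgeR, with totals alone, with Olfr648 kept in the totals, with no filter, at a mean of 10 CPM, with mitochondrial or neighbouring rows left out, without the group term or with the repeated file kept. DESeq2 called 9 higher and 7 lower. In normal libraries alone 1 row was higher and 3 were lower. In colorectal cancer libraries alone 70 were higher and 5 lower, a fit whose low side is the lone replicate 3, assumed to vary like the high libraries. With 1 library left out the counts were 0 to 1 higher and 0 to 3 lower: Prss43 was higher without normal replicate 1, Acbd3 was higher without normal replicate 5, and 3 rows were lower without colorectal cancer replicate 3. With 1 library left out, the high minus low difference ranged from 256600 to 1365000 in total counts without Olfr648, from 304 to 1297 in rows above 0 and from 265 to 989 in thinned rows. The lowest value of each came without colorectal cancer replicate 3. That left colorectal cancer with no low library, so only the normal libraries entered the difference. The cause of the other changes was not tested. With the replicate number as a block, 0 rows were higher and 0 lower, and the smallest adjusted p was 0.0508 by edgeR. Same-numbered libraries correlated at -0.0634 to 0.0409 in 5 pairs, and 1 of 5 matched its own number best, so the numbers were not taken to pair the samples. Of 1294 values of 55 named rows over 24 alternatives, 1289 stayed on the same side of the threshold; the 5 others were the DESeq2 calls of Ubtd1, Slamf1, Chst8, Esyt1 and Ppp1r8. The sign was opposite in 109, and 26 of the 55 rows kept theirs in all alternatives run. The few libraries, with 1 low library in colorectal cancer, limit the precision.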

Other observations

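The rows described here were chosen after their values were seen, and none passed in edgeR's test of high against low libraries across all rows. The high normal libraries, replicates 2 and 3, shared rows that set them apart from most others. Vps26a, a retromer subunit that sorts endosomal cargo, was at 0 in both, at 47.4 to 59.8 CPM in the 4 low normal libraries and at 0 in colorectal cancer replicate 1. Cdk2ap2, Stk10, a lymphocyte kinase, and Smap2, a regulator of vesicle coats, were at 0 in the same 2 libraries and above 0 in the other 9. DESeq2 called Vps26a, Cdk2ap2, Stk10 and Smap2 lower in the high libraries (adjusted p = 0.00535, 2.41e-05, 2.34e-05 and 0.000432). In high colorectal cancer replicates 1, 2, 4 and 6, however, Cdk2ap2 was at 25.7 to 32.6 CPM, against 17.1 to 26.5 in the low libraries. Stk10 was at 22.0 to 24.7 there against 19.0 to 31.1, and Smap2 at 9.92 to 12.2 against 8.77 to 20.5. Vps26a was at 32.2 to 45.2 CPM in colorectal cancer replicates 2, 4 and 6, against 39.8 to 59.8 in the low libraries. Khdrbs1, an RNA-binding protein, was at 330.7 and 319.5 CPM in high normal replicates 2 and 3, at 282.8 in colorectal cancer replicate 4 and at 20.2 to 30.4 elsewhere. In normal libraries alone Khdrbs1, Vps26a, Cdk2ap2 and Stk10 were the 4 rows called by edgeR.

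High colorectal cancer replicate 6 had the highest level of 3 rows named for liver genes. Kng1, a kininogen of plasma, was at 179.6 CPM there and at 30.3 in the next library, normal replicate 6. Serpina11 was at 159 and Mup7, a major urinary protein, at 94.1 CPM. Low normal replicate 6 was second in all 3, so these rows did not follow the class. The liver marker list, which holds none of the 3, summed to 3.41 to 11.8 CPM in the high and 1.17 to 7.06 in the low libraries, with Apob, Ttr and Fgb at 0 throughout.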
